A study of Mus musculus with 2 samples.

Results

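The 10 genes described here are the IFIT genes Ifit1, Ifit2 and Ifit3 and the antiviral effectors Rsad2, Ifi44, Bst2, Rtp4, Xaf1, Cmpk2 and Ifitm3, taken by gene symbol from the 26037 genes of the deposited table. All 10 were found. RNA was measured in RANKL-treated cultures labelled as primary osteoclasts, with 1 MMP9_KO library and 1 control library, so n = 1 per group and no difference below has a replicate check. Both groups came from bone marrow of C57BL/6 mice aged 6 to 8 weeks, were grown in medium of 10% serum, first at 5 ng/ml of M-CSF and then at 30 ng/ml for 3 days, and received RANKL, the cytokine that drives macrophages to become osteoclasts, for 3 days. The headings of the table add the letters "sh" to the MMP9_KO column and "NCsh" to the control column. The labels do not explain them, so it is not known here if the gene was removed or its RNA knocked down. Genotype, culture and library cannot be told apart in this design.

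Interferon-stimulated genes are transcribed when type I interferon binds its receptor and the kinases Jak1 and Tyk2 activate transcription factors that join Irf9 in a complex called ISGF3. This complex binds the interferon-stimulated response element in promoters. The products act on different steps of infection: Ifitm3 at entry, IFIT proteins on viral RNA, Rsad2 on nucleotide pools and Bst2 at the release of particles. In macrophages such genes are known to be strongly inducible, and type I interferon is known to restrain osteoclast formation.

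Reads recovered from the deposited values, as described below, summed over all genes to 17741432 in the MMP9_KO library and 20678441 in the control library. Reads outside these genes are not included. Levels are normalised read counts, that is, reads scaled by a factor of each library and not divided by transcript length. Intervals in parentheses are exact 95% intervals for counting error only, and because reads carried no molecular identifiers they may count a molecule more than once. Mmp9, the targeted gene, had 163 reads and a level of 3.87 in MMP9_KO, against 5609 reads and 139 in the control. The osteoclast markers, 9 of 9 compared and Mmp9 among them, were lower in MMP9_KO by at least 2-fold, with a summed level of 380.0 in MMP9_KO and 6716 in the control, so the defining markers of the labelled cell type were lower in that library. Macrophage markers gave 5 higher and 1 lower of 7 compared, with summed levels of 1362 in MMP9_KO and 1008 in the control. The part of these marker differences in the results below was not tested, and in bulk RNA fewer cells of a type and less RNA per cell cannot be told apart.

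All 10 antiviral effector genes were higher in MMP9_KO than in the control, by 6.23-fold for Ifitm3 to 299.7-fold for Ifit1. Together they held 28353 reads in MMP9_KO and 1753 in the control, a summed level of 674 in MMP9_KO against 43.6 in the control. On the scale of log2 of the level plus a pseudocount of 1, which shrinks differences at low levels, all 10 were past 2-fold (9 with a pseudocount of 5, where Ifit3 was not), whereas 4.00% of the 11126 genes with a mean level of at least 1 were at least 2-fold higher. The members' median log2 ratio was 3.73, while that of all compared genes was -0.16, so the members' median stood 3.89 above it. All 10 passed the level minimum, but 7 of them had a control level under 1 and passed only through MMP9_KO, so that they had to differ. Of all 14983 genes with a control level under 1, whether or not they passed the level minimum, 1.11% were at least 2-fold higher. Genes with few or no reads in both libraries cannot reach 2-fold on this scale. The share is therefore low by construction and is not one for genes that passed as these 7 did. Ifi44, Bst2 and Ifitm3 had a control level of at least 1 and did not depend on MMP9_KO to pass; of the 11054 genes with that control level, 2.74% were at least 2-fold higher. Of the genes past 2-fold in either direction 29.5% were higher (445 higher, 1066 lower), and scaling both libraries to the same sum made this 50.3% (691 higher, 684 lower).

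**Figure D1:**
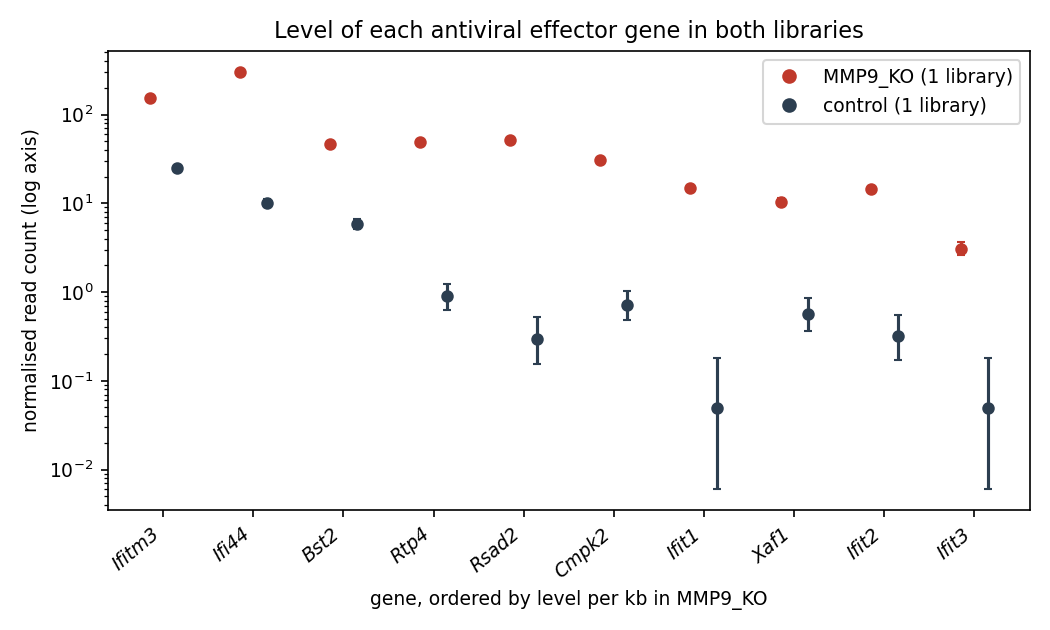
Normalised read count (log axis) of the 10 antiviral effector genes in the MMP9_KO library (red, left of each pair) and the control library (dark, right), with exact 95% Poisson intervals for counting error. Each gene is higher in MMP9_KO, from 3.09 for Ifit3 to 299 for Ifi44, against 0.0497 for Ifit1 and Ifit3 to 24.7 for Ifitm3 in the control.

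The promoters of members that differ together are shown because interferon-stimulated genes are known for a defined promoter element. Sequences are from RefSeq on GRCm38.p6, a later build than the mm9 of the alignment, and a window from 250 bases before to 50 bases after the start was given for 9 of the 10 members (all but Rtp4). The letters GAAANNGAAA, the core of the response element, were searched on both strands, with overlapping matches counted. They occurred in 5 of the 9 members (Ifit1, Ifit3, Rsad2, Bst2 and Ifitm3) and in 3.99% of the 27025 genes with a window. The letters TTCNNNGAA, the core of the gamma-activated site, occurred in 3 of 9 members (Ifit2, Bst2 and Ifitm3) and in 9.55% of all genes. In the windows of Ifi44, Xaf1 and Cmpk2 neither set of letters occurred. A match describes the letters and is not shown to be a bound site. In the stretches below, read 5′ to 3′ on the strand of the gene, capitals mark each GAAANNGAAA match, which reads TTTCNNTTTC where it lies on the other strand. The first is the plus-strand stretch chr19:34640744-34640870 between the annotated ends of Ifit1 and its divergent relative 2010002M12Rik. The next are chr19:34583359-34583528 on the plus strand before Ifit3, chr19:34607757-34607956 on the plus strand before its relative I830012O16Rik, chr12:26456453-26456592 on the minus strand before Rsad2, chr8:71537473-71537622 on the minus strand before Bst2, and chr7:141010715-141010743 on the minus strand just after the RefSeq start of Ifitm3.
Ifit1: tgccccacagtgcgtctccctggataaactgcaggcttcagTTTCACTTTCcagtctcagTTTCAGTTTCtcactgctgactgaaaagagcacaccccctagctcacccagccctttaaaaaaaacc
Ifit3: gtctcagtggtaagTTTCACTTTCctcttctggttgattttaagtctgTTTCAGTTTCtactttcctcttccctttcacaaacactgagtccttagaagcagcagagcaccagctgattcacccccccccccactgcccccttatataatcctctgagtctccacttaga
I830012O16Rik: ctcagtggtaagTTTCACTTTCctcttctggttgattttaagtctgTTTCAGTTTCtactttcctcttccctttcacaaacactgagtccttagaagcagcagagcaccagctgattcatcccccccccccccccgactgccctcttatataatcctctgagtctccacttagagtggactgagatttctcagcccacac
Rsad2: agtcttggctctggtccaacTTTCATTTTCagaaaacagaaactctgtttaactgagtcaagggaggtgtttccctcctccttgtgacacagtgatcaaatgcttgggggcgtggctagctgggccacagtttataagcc
Bst2: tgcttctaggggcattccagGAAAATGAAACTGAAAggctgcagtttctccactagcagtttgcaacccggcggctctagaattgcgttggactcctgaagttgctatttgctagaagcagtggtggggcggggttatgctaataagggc
Ifitm3: gGAAAAGGAAActtctgaGAAACCGAAAc

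Counting the first transcribed base as 0, the matches began at positions -104 and -85 for Ifit1, -156 and -122 for Ifit3, -120 for Rsad2, -130 and -124 for Bst2, where they overlap, and 2 and 19 for Ifitm3. The stretches of Ifit3 and I830012O16Rik share an identical run of 119 bases that holds both matches.

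The IFIT genes encode proteins of tetratricopeptide repeats, of which Ifit1 binds viral RNA whose cap lacks a methyl group, and Ifit2 and Ifit3 are known as its partners in human cells. Ifit1 (ENSMUSG00000034459, chromosome 19, 34640871 to 34650009 in GRCm38, plus strand) had a level of 14.9 in MMP9_KO and 0.0497 in the control, from 627 reads in MMP9_KO and 2 in the control. Its fold of 299.7 is wide at 82.6 to 2480, since the control count was 2. Ifit2 (34550694 to 34576419) had 14.4 in MMP9_KO and 0.323 in the control, 44.6-fold higher (25.9 to 84.3), from 607 reads in MMP9_KO and 13 in the control. Ifit3 (34583531 to 34588731) had 3.09 in MMP9_KO and 0.0497 in the control, 62.1-fold higher (16.9 to 519), from 130 reads in MMP9_KO and 2 in the control. The counting intervals of the 3 folds overlap, those of Ifit1 and Ifit2 only narrowly, and the order of the folds was not tested.

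The table has 3 further Ifit rows, which carry older names. I830012O16Rik, now called Ifit3b, had 2.38 in MMP9_KO and 0.0745 in the control, 31.9-fold higher (10.6 to 157). 2010002M12Rik, now Ifit1bl2, had 2.40 in MMP9_KO and no read in the control, at least 32.2-fold higher when 3 control reads are assumed; the exact interval of its fold starts at 25.7. Gm14446, now Ifit1bl1, had 20 reads in MMP9_KO and 3 in the control, under the level for comparison. These genes resemble each other, so their reads can be split between rows, and the sources used here do not say how the authors treated reads with several matches. Of all stretches of 50 bases in the Ifit3 transcript, 51.2% also occurred in I830012O16Rik, whereas 7.13% of those of Ifit1 and 0 of those of Ifit2 occurred in another of the compared family transcripts. With 75 bases the share for Ifit3 was 41.1%, and with 36 bases 58.5%. The separate levels of Ifit3 and I830012O16Rik are therefore uncertain. Summed, these 2 rows were 43.98-fold higher, and Ifit1 summed with Gm14446 and 2010002M12Rik was 143-fold higher. Over all 6 Ifit rows the level was 37.7 in MMP9_KO and 0.571 in the control, 65.9-fold higher (43.7 to 104), from 1585 reads in MMP9_KO and 23 in the control.

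The 6 Ifit rows lie within 99316 bases on chromosome 19, and the genes on both sides did not share the difference. Lipa, which encodes lysosomal acid lipase, had 229 in MMP9_KO and 218 in the control. Slc16a12, a transporter gene on the other side, had 14.0 in MMP9_KO and 40.3 in the control, a log2 ratio of -1.46. Within the cluster Ifit1 and 2010002M12Rik are read in opposite directions, with 145 bases between their RefSeq starts. Both held the same pair of response element matches, and per kb their MMP9_KO levels were 5.61 for Ifit1 and 0.713 for 2010002M12Rik.

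**Figure D2:**
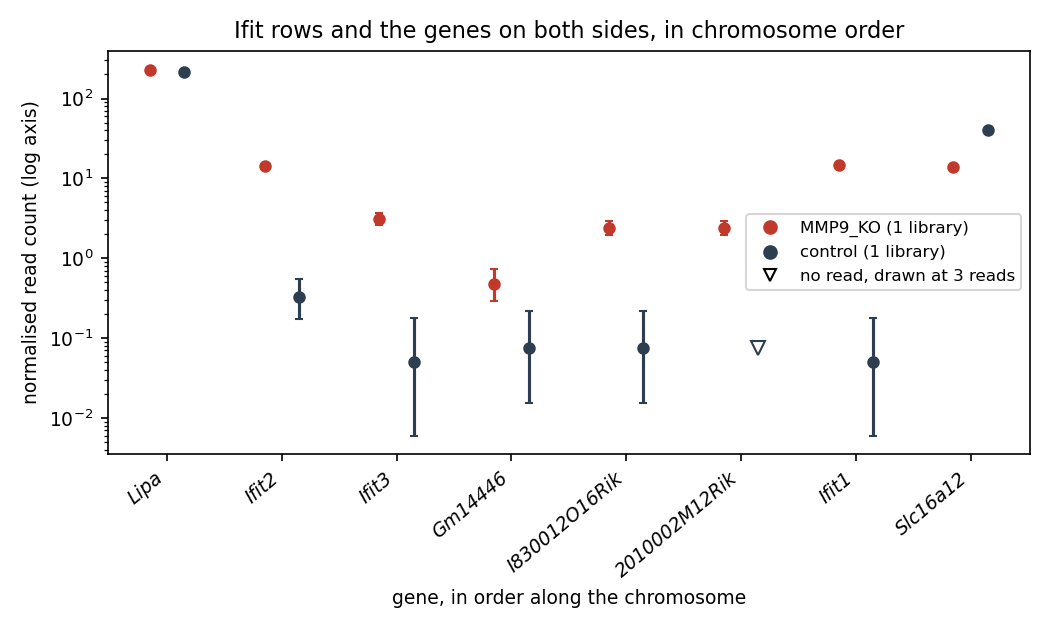
Normalised read count (log axis) of the 6 Ifit rows and the protein-coding gene on each side, in chromosome order, in MMP9_KO (red, left) and the control (dark, right), with exact 95% Poisson intervals and a triangle at the level of 3 reads where there was no read. The Ifit rows stand between 0.475 and 14.9 in MMP9_KO and below 0.5 in the control, while Lipa was at 229 in MMP9_KO and 218 in the control and Slc16a12 was lower in MMP9_KO.

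Rsad2 and Cmpk2 are neighbours on chromosome 12 and act on related nucleotides. Rsad2 encodes viperin, whose human form turns CTP into a chain-terminating analogue, and Cmpk2 encodes a mitochondrial kinase of UMP and CMP. Rsad2 (ENSMUSG00000020641, 26442746 to 26456452, minus strand) had 51.7 in MMP9_KO and 0.298 in the control, 173-fold higher (99.1 to 336), from 2177 reads in MMP9_KO and 12 in the control. Cmpk2 (ENSMUSG00000020638, 26469204 to 26479837, plus strand) had 30.9 in MMP9_KO and 0.721 in the control, 42.9-fold higher (29.7 to 64.3), from 1302 reads in MMP9_KO and 29 in the control. The 2 intervals do not overlap, so the genes differed unequally beyond counting error. Cmpk2 had 0.598 reads for each Rsad2 read in MMP9_KO (0.558 to 0.641) and 2.42 in the control (1.20 to 5.20). The genes are read away from each other with 12751 bases between them. On their outer sides Rnf144a and Sox11 had no read in either library. Among other enzymes of nucleotide and isoprenoid metabolism, 0 of 8 compared genes were past 2-fold, and the cytosolic kinase gene Cmpk1 had 33.8 in MMP9_KO and 29.0 in the control. The largest log2 ratio in that list was 0.86 for Dck, which encodes deoxycytidine kinase, at 23.5 in MMP9_KO and 12.5 in the control, followed by 0.70 for the CTP synthase gene Ctps.

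Ifi44 (ENSMUSG00000028037, chromosome 3, 151730922 to 151749960, minus strand), an interferon-inducible gene whose product is less well understood, had the most reads of the 10 in MMP9_KO. Its level was 299 in MMP9_KO and 10.1 in the control, 29.6-fold higher (26.9 to 32.8), from 12591 reads in MMP9_KO and 406 in the control. Its read count lay at percentile 99.0 of the genes with a read in MMP9_KO and at percentile 53.5 in the control. The adjacent relative H28, now called Ifi44l, lies 8776 bases away on the same strand and had 25.1 in MMP9_KO and 0.199 in the control. It was 126-fold higher (63.8 to 293), an interval that does not overlap that of Ifi44. The transcripts of H28 and Ifi44 shared 0 stretches of 36 bases. Eltd1, on the other side, had 0 reads in MMP9_KO and 4 in the control.

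Ifitm3 and Bst2 had the smallest folds of the 10 and the 2 highest control levels per kb. Ifitm3 (ENSMUSG00000025492, chromosome 7, 141009586 to 141010770, minus strand), whose product blocks virus entry in endosomes, had 154 in MMP9_KO and 24.7 in the control, 6.23-fold higher (5.83 to 6.67). Bst2 (ENSMUSG00000046718, chromosome 8, 71534255 to 71537456, minus strand), also called tetherin, holds budding virus particles at the cell surface. It had 46.0 in MMP9_KO and 5.89 in the control, 7.81-fold higher (6.82 to 8.97). Of the 5 other Ifitm rows, none was past 2-fold on the pseudocount scale, but only Ifitm2 had a mean level of at least 1. Ifitm2, which also acts on virus entry, had 14.4 in MMP9_KO and 19.8 in the control, a log2 ratio of -0.44 that is negative also relative to the median of all genes. With equal sums the log2 shift of 0.29 would bring it nearer to 0 without changing its sign. Ifitm1 had 0.903 in MMP9_KO and 0.721 in the control, and Ifitm6 had 21 reads in MMP9_KO and 6 in the control. Ifitm5 had 8 reads in each library and Ifitm7 had none. Ifitm3 shared 5.56% of its 50-base stretches with the other Ifitm transcripts. Fam125a, beside Bst2, had 12.5 in MMP9_KO and 17.7 in the control. Bst2 is also a marker of plasmacytoid dendritic cells in the mouse. Of the other markers on that list, Siglech had 1 read in each library and Ccr9 had 0 reads in MMP9_KO and 4 in the control. The 5 markers of that list other than Bst2 summed to 82.8 in MMP9_KO and 50.8 in the control, most of it from Tcf4 at 73.3 in MMP9_KO, and of the 2 compared Irf8 was at least 2-fold higher, at 9.45 in MMP9_KO and 0.745 in the control. The part of these cells in the Bst2 difference was not tested.

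Rtp4 and Xaf1 have roles beside direct virus restriction. Rtp4 (ENSMUSG00000033355, chromosome 16, 23520291 to 23614222, plus strand), which encodes a chaperone that carries receptors to the cell surface, had 49.2 in MMP9_KO and 0.895 in the control. It was 55.0-fold higher (39.6 to 78.7), from 2071 reads in MMP9_KO and 36 in the control. Its relatives Rtp1, Rtp2 and Rtp3 had no read in either library. The annotated Rtp4 overlaps Masp1, which had 1 read in MMP9_KO and 0 in the control. Xaf1 (ENSMUSG00000040483, chromosome 11, 72301629 to 72313733, plus strand), whose product opposes the apoptosis inhibitor XIAP, had 10.4 in MMP9_KO and 0.571 in the control, 18.2-fold higher (11.98 to 29.0). Fbxo39 begins 711 bases after the end of Xaf1 on the same strand and had 15 reads in MMP9_KO and 1 in the control. The use of strand and the treatment of overlapping genes in the authors' counting are not given.

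**Figure D3:**
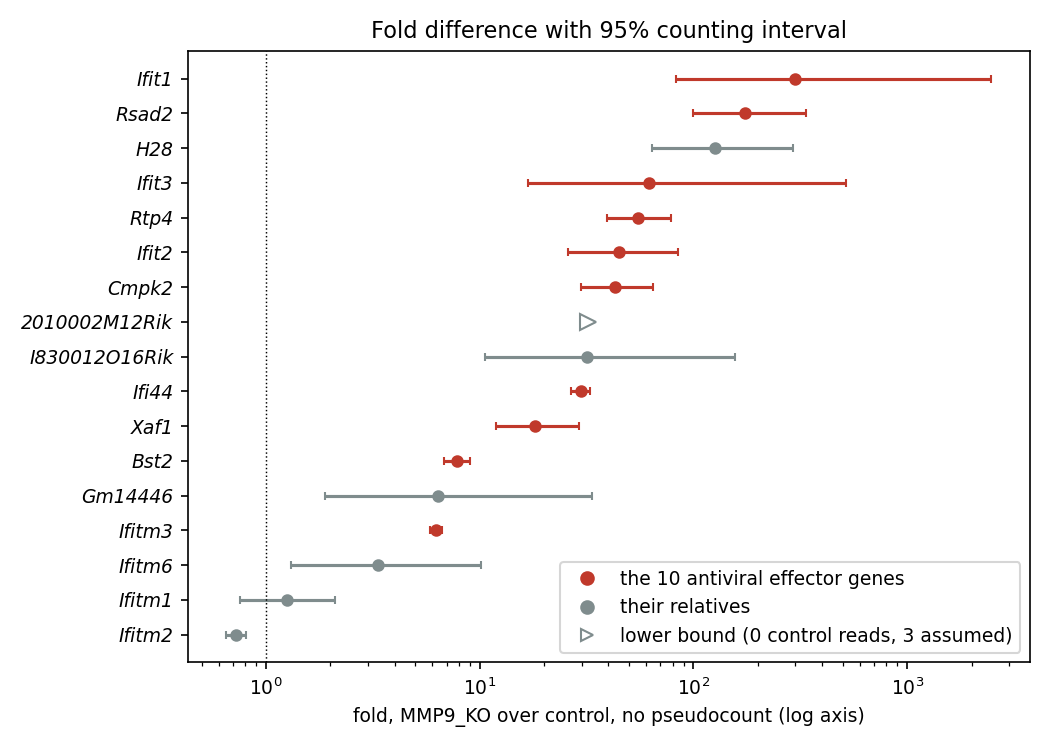
Fold of MMP9_KO over control without a pseudocount (log axis) for the 10 antiviral effector genes (red) and those relatives with at least 20 reads in MMP9_KO (grey), with exact 95% counting intervals; the open triangle for 2010002M12Rik marks 32.2, its fold against an assumed 3 control reads, and its exact interval starts at 25.7. The intervals of Ifitm3 and Bst2 lie below those of the other members, and Ifitm2 lies below 1.

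Ordered by level per kb of transcript, which allows genes to be compared, Ifitm3 came first in both libraries, at 227 per kb in MMP9_KO and 36.4 per kb in the control. In MMP9_KO Ifi44 (103 per kb), Bst2 (58.0), Rtp4 (26.5), Rsad2 (13.7), Cmpk2 (9.67), Ifit1 (5.61), Xaf1 (4.01), Ifit2 (3.78) and Ifit3 (1.77) followed. Only Xaf1 and Ifit2 had overlapping intervals among neighbours in this order. In the control the order was Ifitm3, Bst2 (7.44 per kb), Ifi44 (3.47), Rtp4 (0.481), Cmpk2 (0.225), Xaf1 (0.220), Ifit2 (0.0846), Rsad2 (0.0788), Ifit3 (0.0285) and Ifit1 (0.0187). There the intervals of all neighbours from Cmpk2 down overlapped, and 7 of the 10 members had fewer than 50 control reads. Rsad2 stood above Cmpk2 in MMP9_KO and below it in the control, in both libraries with intervals that do not overlap. Transcript lengths are those of the longest protein-coding transcript in GENCODE M21, which may differ from the annotation the authors used.

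Among the log2 ratios of all 11126 compared genes, 9 of the 10 members were within the highest 100. The 7 members with a control level under 1 entered this ranking only through MMP9_KO, so a difference was built into their ranks. Ifi44, Bst2 and Ifitm3 entered it without that. Rsad2 ranked 5, Ifi44 10, Rtp4 11, Cmpk2 20, Ifit1 24, Ifit2 34, Xaf1 69, Bst2 76, Ifitm3 93 and Ifit3 170. Ifit3, at 3.09 the lowest of them in MMP9_KO, had a log2 ratio of 1.96 on the pseudocount scale. Among 26027 other genes, the 5 nearest to the members' median point in log2 of the level plus 1, over only 2 libraries, were Gm4070, Gvin1, Dhx58, Isg15 and Itgal, and only these lay within a distance of 0.5. Gm4070 had 39.0 in MMP9_KO and 0.472 in the control. Gvin1, an interferon-inducible GTPase gene, had 39.6 in MMP9_KO and 0.472 in the control. Gm4070 and Gvin1 had equal control levels, and whether they share reads was not tested. Dhx58, a relative of the RNA sensor RIG-I, had 32.8 in MMP9_KO and 0.770 in the control. Isg15, which encodes a ubiquitin-like modifier, had 31.0 in MMP9_KO and 0.547 in the control. Itgal, which encodes an integrin chain of leukocytes, had 45.9 in MMP9_KO and 0.820 in the control.

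**Figure D4:**
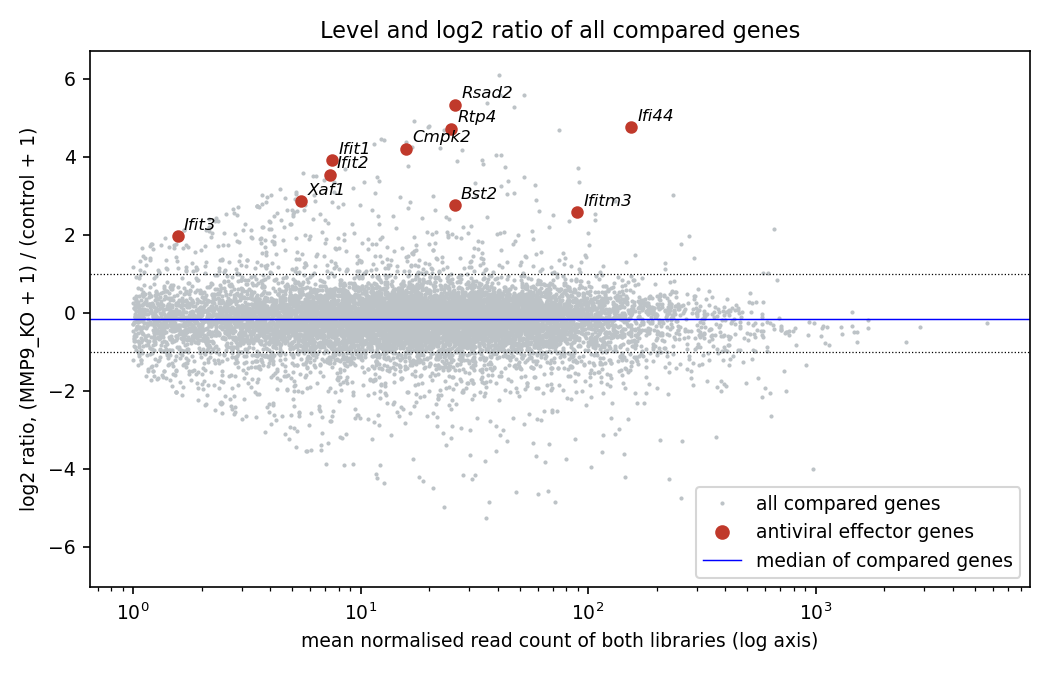
Log2 ratio of MMP9_KO over control with a pseudocount of 1 against the mean level of both libraries (log axis) for the 11126 compared genes (grey), with the 10 antiviral effector genes in red, dotted lines at 2-fold and a blue line at the median of -0.16. The members lie between 1.96 (Ifit3) and 5.34 (Rsad2).

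The other genes of the pathway did not all differ to the same degree. Interferon genes themselves were at or near 0: over 19 genes, including Ifnb1, Ifng and 11 Ifna genes, 1 read was counted in MMP9_KO and 4 in the control. Ifnb1 and Ifna1 had 0 reads in both libraries, and a count of 0, with 3 reads taken as its limit, allows a level of up to 0.0713 in MMP9_KO and 0.0745 in the control; the exact interval reaches 0.0876 in MMP9_KO and 0.0917 in the control. Of 7 genes from receptor to ISGF3, 3 were at least 2-fold higher, 0 lower and 4 within 2-fold. Among these, Irf9 had 33.7 in MMP9_KO and 7.58 in the control, and Stat2, its partner in ISGF3, had 24.2 in MMP9_KO and 8.10 in the control. Their folds were 4.45 (3.93 to 5.05) and 2.99 (2.64 to 3.40), both below the fold of every one of the 10 members. The 4 receptor and kinase genes, Ifnar1, Ifnar2, Jak1 and Tyk2, had log2 ratios between -0.64 and 0.08.

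Of 18 compared sensors and inducers of interferon, 9 were at least 2-fold higher, 0 lower and 9 within 2-fold. Ddx58 and Ifih1, which encode the cytosolic RNA sensors RIG-I and MDA5, had 144 and 30.9 in MMP9_KO, against 4.60 and 1.34 in the control. Irf7, a transcription factor that amplifies interferon production, had 43.3 in MMP9_KO and 1.34 in the control, 32.2-fold higher (24.6 to 43.1). Of 31 other antiviral effectors, 23 were higher, 1 lower and 7 within 2-fold, with a median log2 ratio of 2.45. Parp14 had 79.0 in MMP9_KO and 3.83 in the control. Mx2, annotated as a polymorphic pseudogene, had 242 reads in MMP9_KO and 1 in the control. Its relative Mx1 had 42 reads in MMP9_KO and 2 in the control, under the level for comparison. Whether these transcripts encode working proteins in this strain was not tested. In this list 8 of the compared genes had a control level under 1 and passed only through MMP9_KO.

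Feedback inhibitors gave 2 higher, 0 lower and 6 within 2-fold of 8 compared. Usp18, a protease that removes Isg15 from proteins and damps the receptor, had 103 in MMP9_KO and 1.17 in the control, and Socs3 had 14.5 in MMP9_KO and 1.37 in the control. Socs1, under the level for comparison, had 29 reads in MMP9_KO and 10 in the control. Genes listed here as targets of interferon gamma, not all of them specific to it, were mostly too low to compare, with 2 of 7 at a sufficient level. The row named Gbp5 among the 7 carries an identifier now called Gbp2b. The chemokine gene Cxcl10 had 7.48 in MMP9_KO and 0.174 in the control, and Cd274 had 20.8 in MMP9_KO and 11.7 in the control. Cxcl9 and Ciita had 0 reads in MMP9_KO and 1 each in the control. Over the 7 lists 72 different genes were compared, of which 37 were at least 2-fold higher and 1 lower, set beside 4.00% higher and 9.58% lower among all compared genes. Part of these genes passed the level minimum only through MMP9_KO; with a level of at least 1 asked of the control alone, 26 of 61 were at least 2-fold higher, beside 2.74% of all genes at that control level.

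**Figure D5:**
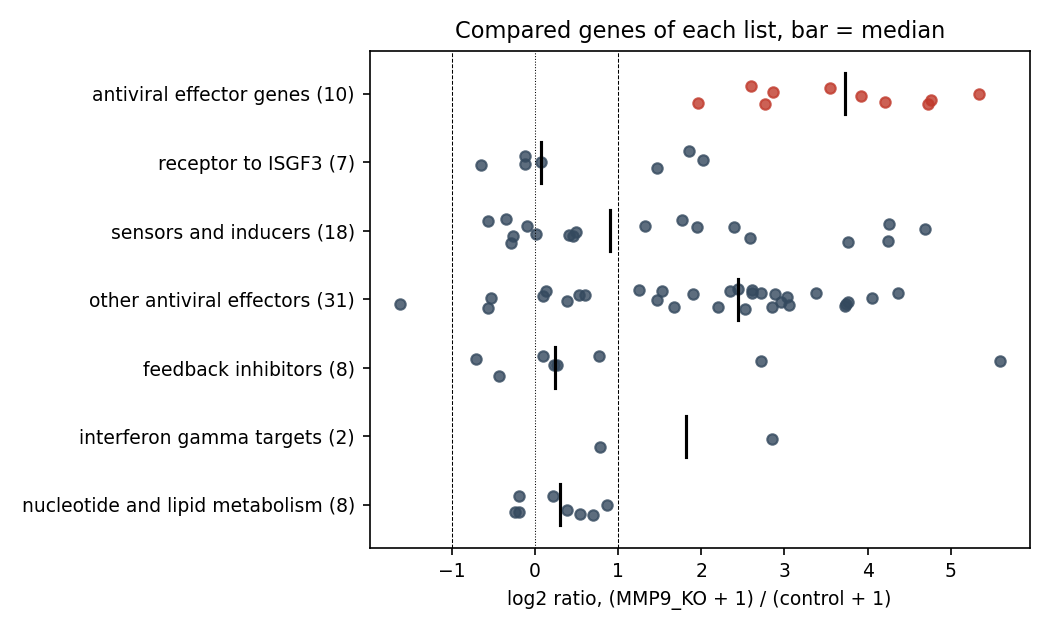
Log2 ratio of MMP9_KO over control with a pseudocount of 1 for the compared genes of each list (number in parentheses), 1 point per gene, with a bar at the median and dashed lines at 2-fold. The 10 antiviral effector genes have a median of 3.73, the other antiviral effectors 2.45, sensors and inducers 0.91 and the receptor to ISGF3 genes 0.08; no interferon gene had a level for comparison.

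In 7 lists of cell types that could accompany the cultures, markers were low. Over these lists, of dendritic, monocyte, neutrophil, T and NK, B, stromal and erythroid cells, 47 markers summed to 37.9 in MMP9_KO and 39.4 in the control. The plasmacytoid dendritic cell list, described above with Bst2, is not among them. With Bst2 included, it summed to 128.8 in MMP9_KO and 56.7 in the control. The 7 lists did not all move alike. Dendritic cell markers summed to 2.40 in MMP9_KO and 16.2 in the control, and 2 of 2 compared were at least 2-fold lower: Itgax had 0.665 in MMP9_KO and 11.2 in the control, and Zbtb46 had 1.24 in MMP9_KO and 4.40 in the control. Monocyte markers summed to 11.4 in MMP9_KO and 10.3 in the control, with 1 of 3 compared at least 2-fold higher, Spn, at 2.99 in MMP9_KO and 0.770 in the control. Of the 47 markers 29 were at 0 in MMP9_KO and 31 in the control. Markers of T and NK cells, which are the usual source of interferon gamma, were at 0 in MMP9_KO for 9 of 9 and in the control for 8 of 9. Neutrophil markers summed to 0.736 in MMP9_KO and 0.348 in the control. Blnk, listed as a B cell marker, made up most of that list's 22.8 in MMP9_KO and 12.03 in the control, while Ms4a1 and Pax5 had 0 reads in MMP9_KO.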

How the data were processed

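RNA from 1 MMP9_KO and 1 control culture was sequenced as polyadenylated RNA, per the labels' protocols. Reads were aligned with TopHat to mm9, per the submitters' processing notes, which give no counting program, annotation, strand use or normalisation. The authors deposited log2 values, titled as RPKM. Converted from log2, 99.99% of the values above the lowest one in each library lay within 0.05 of a whole multiple of 1 step (0.0238 in MMP9_KO, 0.0248 in the control) that was the same for all genes, so they were read as counts times 1 factor, and values at 0.9 of the step were set to 0. The file title had led to a length-normalised unit being assumed, so thresholds were kept and levels per kb were computed separately.

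Genes whose levels averaged at least 1 were compared on log2 of the level plus 1, with calls at 2-fold. Folds carry no pseudocount, and a fold against 0 reads used 3 reads. With 1 library per group no p was computed. The steps were tested on simulated counts with counting error alone, where only genes with a mean level of at least 5 were changed. That test did not cover a change in genes with a control level under 1, as 7 of the members had, or differences between cultures. Genes named are the 10 members, Mmp9, rows of their families, adjacent genes, the first 2 and the 3 most different members of each of 7 pathway lists, and the 5 most similar genes, with further genes from these lists and from 10 cell marker lists given for their role or chosen after their values were seen. The members and lists were chosen with earlier results of these data known. Of the pathway list symbols, 2 were not found. Some list genes that would have been named are not reported here. Positions and transcripts are from GENCODE M21 on GRCm38. Python 3.11.15, numpy 2.4.6, pandas 2.3.3 and scipy 1.17.1 were used. Other pseudocounts, level minimums, scalings and summed Ifit rows were tried.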

Additional observations from a re-analysis of the deposited data

How the results depend on the processing

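No paired analysis was possible because each group held a single library, and leaving one out would leave no comparison. The members' median log2 ratio of 3.73 was 4.99 when the pseudocount was 0.1, 2.32 when it was 5, and 4.00 with equal sums; their median fold of 43.8 was 13.4 with a pseudocount of 1. A pseudocount shrinks low levels by construction. Of the 10 members past 2-fold, 9 were so with a pseudocount of 5, and 9 were compared, and past 2-fold, at a mean of at least 5. Members with a control level under 1 can reach that mean only through MMP9_KO, so for them being past 2-fold was fixed in advance. With a level of at least 1 asked of the control alone, an alternative chosen after seeing the data, 3 members entered, all 3 higher, with a median of 2.77. The count of all genes at least 2-fold higher, 445, was 255 with a pseudocount of 5 and 691 with equal sums, and the 1 lower list gene became 0 with a pseudocount of 5 or a mean of at least 5, where fewer genes pass. Scaling to a median ratio of 0, by a trimmed mean or to equal sums moved all log2 ratios of well-counted genes up by about 0.16, 0.19 and 0.29, so it could not change the direction of the members. Of 42 alternative folds of single members, 28 stayed within the counting interval, 14 left it and 0 changed direction. These scalings and a pseudocount cannot reverse a fold above 1, so that 0 was mostly fixed in advance. Where the control count is low the interval is wide, which makes it easier to stay within it. Control counts of 2 to 36 reads limit the folds of 7 members.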
